A study of Homo sapiens with 6 samples.

Results

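Contractile actin and serum response factor (SRF) type genes were compared between osimertinib-resistant and parental H1975 cells. The set comprised ACTA2, TAGLN, MYL9, TPM1, TPM2, TPM4, CNN1, CNN2, CALD1 and ACTN1, taken by symbol from the series table, so that 10 of its 20356 genes were members and all 10 were found. H1975 is an established human lung adenocarcinoma line, driven by a mutant epidermal growth factor receptor (EGFR), and osimertinib is an inhibitor of that receptor. RNA was sequenced from 3 libraries of the resistant derivative, H1975 OR, cultured with 1 µM osimertinib, and from 3 libraries of parental H1975, cultured without it. Both were kept in RPMI-1640 with serum, and the series describes the 3 libraries of each group as biological replicates. Resistance and the presence of the drug cannot be told apart, H1975 OR is the only resistant line here, and whether it is a clone is not given in the sources used here.

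SRF is a transcription factor that binds a DNA element called the CArG box. It works with cofactors of the myocardin family, such as MKL1 and MKL2, which monomeric actin holds in the cytoplasm and which enter the nucleus as actin polymerises. Many of their target genes encode parts of the actin cytoskeleton, and the same genes are known as markers of smooth muscle and myofibroblasts, while several also act in the stress fibres of epithelial and tumour cells.

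RefSeq promoters, running from 250 bases before to 50 after an annotated start on GRCh38.p14, were found by symbol for 8 of the 10 genes, with 18 promoters in all. The genes not matched were TAGLN and MYL9. A CArG box in its strict form lay in 3 of these promoters (16.7%), 1 each of TPM4, CNN2 and ACTN1, against 1.29% of all 35116 promoters in the table and 1.12% of the promoters of tested genes. The element reads the same way on both strands. The 3 are shown because they hold the element that gives the set its name, with the CArG box in capitals, and 1 promoter of ACTA2 is shown beside them because it holds 2 boxes in which a single core base is C or G instead of A or T, also in capitals.
TPM4, chr19:16067288-16067587, plus strand: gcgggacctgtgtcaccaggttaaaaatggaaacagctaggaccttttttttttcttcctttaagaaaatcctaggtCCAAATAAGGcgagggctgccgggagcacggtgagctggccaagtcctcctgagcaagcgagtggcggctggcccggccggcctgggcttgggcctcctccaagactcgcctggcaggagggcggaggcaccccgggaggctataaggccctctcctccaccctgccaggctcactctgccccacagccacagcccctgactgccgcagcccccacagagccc
CNN2, chr19:1026358-1026657, plus strand: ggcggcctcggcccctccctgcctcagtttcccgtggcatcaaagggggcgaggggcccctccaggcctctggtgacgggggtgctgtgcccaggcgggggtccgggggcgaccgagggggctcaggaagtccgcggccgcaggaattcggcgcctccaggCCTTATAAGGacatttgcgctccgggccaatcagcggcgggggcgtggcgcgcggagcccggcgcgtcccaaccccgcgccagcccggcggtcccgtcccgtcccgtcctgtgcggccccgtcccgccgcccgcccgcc
ACTN1, chr14:68977517-68977816, minus strand: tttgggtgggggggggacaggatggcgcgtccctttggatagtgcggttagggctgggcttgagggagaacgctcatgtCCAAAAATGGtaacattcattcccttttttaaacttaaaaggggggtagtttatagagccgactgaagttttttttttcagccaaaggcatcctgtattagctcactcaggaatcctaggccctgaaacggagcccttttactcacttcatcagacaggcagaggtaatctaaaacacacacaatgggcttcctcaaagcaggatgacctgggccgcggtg
ACTA2, chr10:88952724-88953023, minus strand: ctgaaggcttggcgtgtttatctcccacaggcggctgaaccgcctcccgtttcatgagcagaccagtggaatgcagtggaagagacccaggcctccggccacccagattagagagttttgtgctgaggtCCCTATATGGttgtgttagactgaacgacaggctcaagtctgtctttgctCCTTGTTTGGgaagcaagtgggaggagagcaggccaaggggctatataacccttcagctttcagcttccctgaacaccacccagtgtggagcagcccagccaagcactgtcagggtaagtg

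The box began 173 bases before the start in TPM4, 89 bases before it in CNN2 and 171 bases before it in ACTN1. In ACTA2 the 2 boxes with a changed core base began 121 and 71 bases before the start, and such a form was found in 2 of the 18 promoters (11.1%), the other being of CALD1, against 6.94% of all promoters. The shorter motif CATTCC, searched on both strands as CATTCC or GGAATG and bound by TEAD factors in muscle genes, lay in 4 of the 18 promoters (22.2%), of ACTA2, CALD1 and ACTN1, against 14.0% of all promoters. Several genes have more than one promoter in the table, and the windows of TPM2 overlap, so the 18 are not independent of each other. Because the genes were chosen as SRF-type genes, their CArG shares do not test for an excess over all promoters. A match describes these letters only.

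In H1975 OR, 9 of the 10 genes were higher and CNN2 was lower than in parental cells, and in each of the 10 the libraries of the groups did not overlap. Without CNN1, which reached the level needed for testing in H1975 OR alone and so had to differ, 8 of 9 genes rose and 1 fell in the test across all genes, limma on log2(FPKM + 1) with Benjamini-Hochberg adjustment over the 12107 genes that averaged at least 1 FPKM (fragment counts per transcript length and sequencing total) in either group. Of all tested genes 78.0% passed at an adjusted p under 0.05, 39.9% higher and 38.1% lower. Without overlap between groups were 79.8% of all tested genes, 40.8% higher and 39.0% lower, and the counts over the 10 genes stand beside these shares. Because the 10 genes were chosen with earlier results of these data known, their counts and median do not test for a difference from all genes. Log2 fold changes of 1 or more that also passed the test were those of TAGLN and MYL9, 2 of the 10 genes, against 19.3% of tested genes. The median log2 fold change was 0.53 over the 10 genes and 0.43 without CNN1, against 0.01 over all tested genes. Bulk RNA cannot tell fewer cells with a transcript from less of it per cell.

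**Figure D1:**
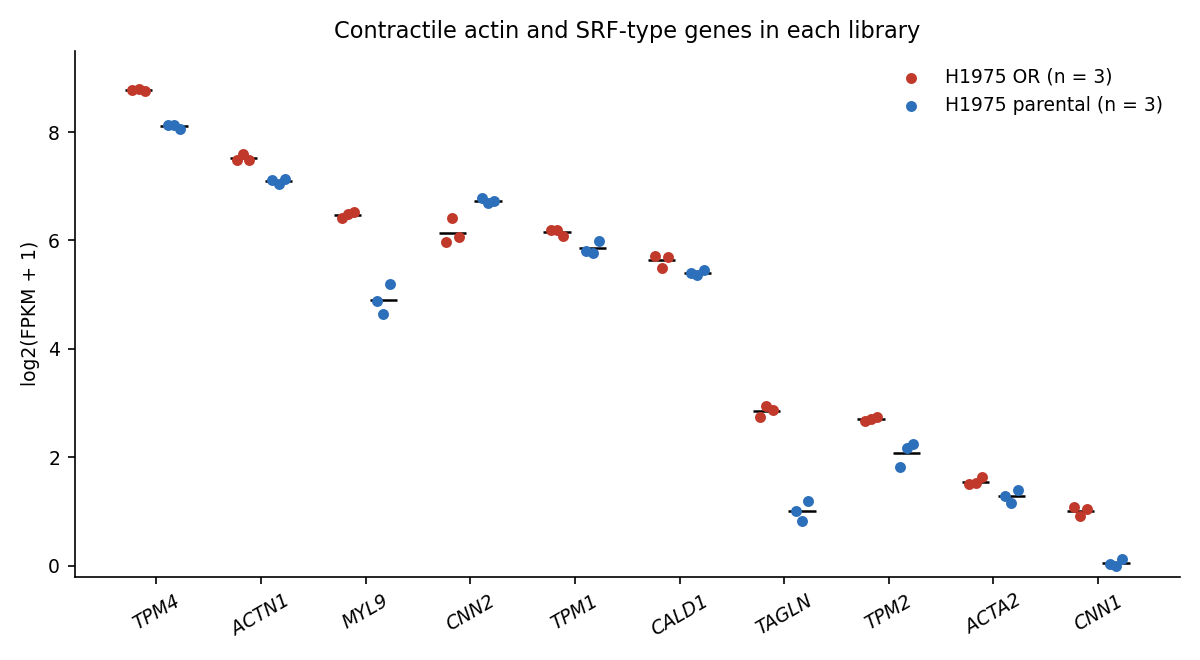
Level of each of the 10 genes as log2(FPKM + 1), ordered by the mean in H1975 OR; each point is a library, red for H1975 OR and blue for parental H1975, and the black line is the mean of 3. Red points lie above blue ones for 9 genes and below them for CNN2, and the widest gaps are those of TAGLN and MYL9.

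The genes of the contractile filament itself came with very different levels. ACTA2, the smooth muscle alpha-actin gene (GRCh37 10:90694831-90751147, minus strand), was at 1.83, 1.86 and 2.11 FPKM in H1975 OR replicates 1 to 3 and at 1.45, 1.24 and 1.65 FPKM in parental replicates 1 to 3. These groups lay close together without overlap, with a log2 fold change of 0.27 ± 0.08 (SE, adjusted p = 0.00991), and the call ended when parental replicate 2 was left out (adjusted p = 0.0518). ACTA2 shares 40080 bases with STAMBPL1 and 734 bases with FAS on the other strand. STAMBPL1 averaged 7.497 FPKM in H1975 OR and 9.88 FPKM in parental cells, and FAS averaged 3.51 and 6.26 FPKM. Whether strand was used in counting is not given in the sources used here. MYL9, a regulatory light chain of myosin II whose phosphorylation switches the motor on (20:35169887-35178228), was at 84.1, 88.4 and 91.6 FPKM in H1975 OR and at 28.5, 24.0 and 35.8 FPKM in parental cells. Every H1975 OR library stood far above every parental one, with a 2.99-fold difference between means (log2 fold change 1.57 ± 0.13, adjusted p = 3.8e-06). On the other strand MYL9 shares 8342 bases with RP5-977B1.7, at means of 0.375 FPKM in H1975 OR and 0.1035 FPKM in parental cells. It also shares 699 bases there with RP5-977B1.11, at means of 0.762 and 0 FPKM.

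TAGLN, transgelin, an actin-bundling protein of smooth muscle (11:117070037-117075498), had the largest rise of the 10 genes. Its level was 5.66, 6.70 and 6.36 FPKM in H1975 OR and 1.02, 0.773 and 1.29 FPKM in parental cells, so that even the lowest resistant library stood well above the highest parental one. The means differed 6.06-fold, and the log2 fold change of 1.84 ± 0.10 (adjusted p = 3.3e-09) ranked 355 among the 12107 tested genes. Beside it, the last 446 bases of TAGLN overlap PCSK7 on the other strand, at a mean of 13.9 FPKM in H1975 OR and 10.6 FPKM in parental cells.

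The tropomyosins are coiled coils that run along actin filaments and set which myosins and severing proteins can bind them. TPM4 (19:16177831-16213813) was the most abundant of the 10 genes, with 436, 443 and 429 FPKM in H1975 OR and 278, 278 and 266 FPKM in parental cells. It also had the least spread, with coefficients of variation of 1.60% in H1975 OR and 2.67% in parental cells, and its log2 fold change was 0.67 ± 0.06 (adjusted p = 4.7e-07). TPM1 (15:63334831-63364114) was at 72.1, 72.0 and 67.1 FPKM in H1975 OR and at 54.8, 53.8 and 62.6 FPKM in parental cells. That rise was small, 1.23-fold between means, with a log2 fold change of 0.30 ± 0.07 (adjusted p = 0.00183). TPM2 (9:35681989-35691017), best known from muscle, was far lower, at 5.40, 5.54 and 5.69 FPKM in H1975 OR and 2.53, 3.51 and 3.72 FPKM in parental cells. The log2 fold change of TPM2 was 0.63 ± 0.10 (adjusted p = 9.2e-05).

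Calponins bind actin and tropomyosin and slow the myosin motor, and the calponin genes of the set moved apart. CNN1, the smooth muscle form (19:11649532-11661138), was at 1.12, 0.884 and 1.06 FPKM in H1975 OR, against 0.0222 and 0.0843 FPKM in parental replicates 1 and 3 and a listed 0 in parental replicate 2. With a mean of 1.02 FPKM in H1975 OR it stood just past the minimum for testing, and no call is read from it. CNN2, the form of non-muscle cells (19:1026298-1039068), was at 61.4, 84.0 and 66.0 FPKM in H1975 OR and at 109, 102 and 105 FPKM in parental cells. It was the only one of the 10 genes that was lower, 0.670-fold between means (log2 fold change -0.58 ± 0.10, adjusted p = 0.000309), and the H1975 OR libraries varied more among themselves (coefficient of variation 16.97%) than the parental ones (3.46%).

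CALD1, caldesmon, an actin-binding inhibitor of myosin (7:134429003-134655479), was at 51.5, 44.0 and 50.9 FPKM in H1975 OR and at 41.1, 40.1 and 43.0 FPKM in parental cells. H1975 OR replicate 2 lay within 1 FPKM of the highest parental library, and the log2 fold change was 0.23 ± 0.07 (adjusted p = 0.0105). ACTN1, alpha-actinin, which crosslinks actin filaments in stress fibres and at adhesions (14:69340860-69446157, minus strand), was at 179, 192 and 178 FPKM in H1975 OR and 137, 130 and 139 FPKM in parental cells. The groups were well apart for their spread, with a 1.35-fold difference between means (log2 fold change 0.43 ± 0.06, adjusted p = 4.3e-05).

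The order of the levels per length changed in the middle and at the low end of the set. In H1975 OR it ran from TPM4 over ACTN1, MYL9, CNN2, TPM1, CALD1, TAGLN, TPM2 and ACTA2 to CNN1, and CNN2 and TPM1, at means of 70.5 and 70.4 FPKM, overlapped, as did TAGLN and TPM2. In parental cells CNN2 stood next after ACTN1, MYL9 stood below TPM1 and CALD1, and TAGLN stood below TPM2, without overlap, and below ACTA2. The parental neighbours that overlapped were ACTA2 and TAGLN, at means of 1.45 and 1.03 FPKM. The abundant genes were therefore TPM4, ACTN1, MYL9, CNN2, TPM1 and CALD1 in both lines, whereas TAGLN, ACTA2 and CNN1, the genes most used as smooth muscle markers, stayed under 7 FPKM in every library.

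**Figure D2:**
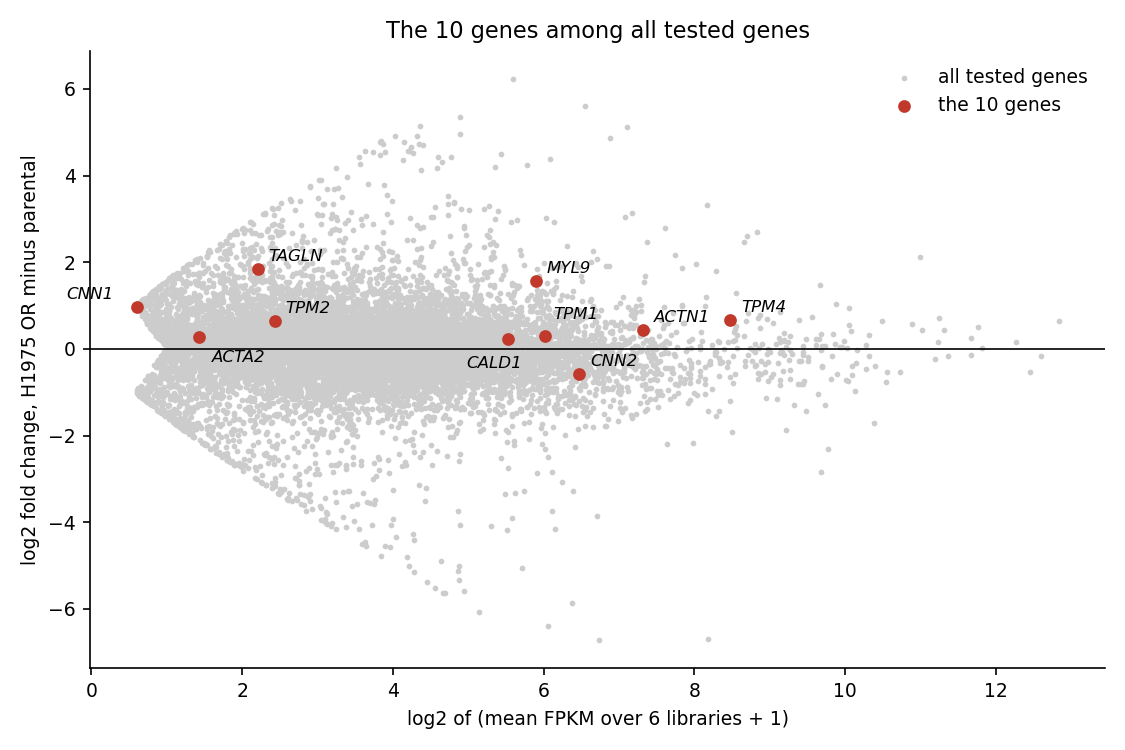
Log2 fold change of FPKM + 1 (H1975 OR minus parental) against the log2 of mean FPKM + 1 over the 6 libraries for the 12107 tested genes (grey) with the 10 genes in red. The 10 genes range from -0.58 for CNN2 to 1.84 for TAGLN, and most lie within the broad band of all genes.

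Each gene other than CALD1 was then set beside its paralogs, in 6 protein families that together held 13 other genes in the table. Of the 8 paralogs tested, 6 fell, 1 rose and 1 did not pass, against 38.1% of all tested genes that fell. The other 5, ACTA1, ACTC1, ACTG2, TAGLN3 and ACTN2, stayed at or under 0.463 FPKM in every library. TPM4, ACTN1 and TAGLN were higher while TPM3, ACTN4 and TAGLN2, the most abundant of their tested paralogs, were lower; beside MYL9, MYL12A was higher and MYL12B lower.

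**Figure D3:**
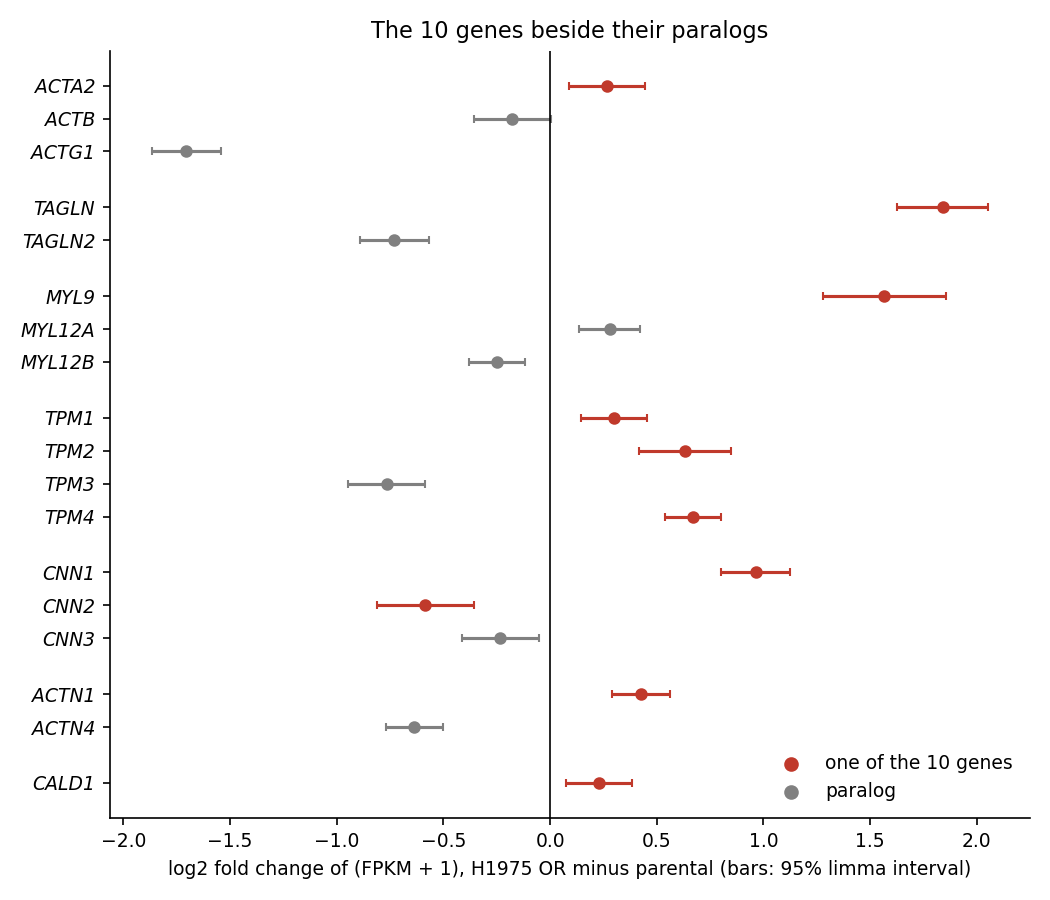
Log2 fold change of FPKM + 1 (H1975 OR minus parental) with its 95% limma interval for the 10 genes (red) and their tested paralogs (grey), grouped by family. Grey points lie below 0 with intervals clear of it for 6 paralogs, among them ACTG1 and TPM3, while MYL12A lies above 0 and the interval of ACTB reaches 0.

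ACTN1 and ACTN4, the alpha-actinins of non-muscle cells, changed in opposite directions while their summed level overlapped between groups. ACTN4 averaged 83.0 ± 3.29 FPKM in H1975 OR and 130 ± 3.82 FPKM in parental cells (SD, n = 3 each, adjusted p = 8.1e-07). The summed alpha-actinin level was 266 ± 11.3 FPKM in H1975 OR and 265 ± 6.64 FPKM in parental cells, with overlapping groups. ACTN1 took 69.0%, 68.9% and 68.3% of this sum in H1975 OR and 50.6%, 50.5% and 52.3% in parental cells, a difference of 17.6 points.

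Among tropomyosins the member TPM4 rose and TPM3 fell. TPM3 was at 152, 191 and 155 FPKM in H1975 OR and at 283, 279 and 282 FPKM in parental cells (log2 fold change -0.77 ± 0.08, adjusted p = 2.7e-06). TPM4 thus made up 65.5%, 62.3% and 65.3% of tropomyosin FPKM in H1975 OR and 45.0%, 45.3% and 43.2% in parental cells, where TPM3 held a like share of 45.7%. The total was only 1.10-fold higher in H1975 OR. TPM2 kept a share under 1% in every library, and the TPM1 share, 10.4 ± 0.384% in H1975 OR and 9.27 ± 0.805% in parental cells, overlapped between groups. The 8 pseudogene entries named after TPM3 summed to 2.28 to 2.65 FPKM in H1975 OR and 10.0 to 11.7 FPKM in parental cells, and how reads shared with such copies were counted is not given in the sources used here.

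MYL9 competes for the same place on the myosin heavy chain as MYL12A and MYL12B. MYL9 took 23.0%, 22.6% and 23.9% of the 3 regulatory light chains in H1975 OR and 8.69%, 7.93% and 11.1% in parental cells. MYL12A rose to a mean of 159 ± 6.75 FPKM in H1975 OR, against 131 ± 7.26 FPKM in parental cells, and MYL12B fell to 132 ± 3.67 FPKM in H1975 OR, against 157 ± 4.57 FPKM in parental cells (adjusted p = 0.00179 and 0.00208). MYL9 thus remained the least abundant of the 3 light chains in every library.

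TAGLN and ACTA2 were minor parts of their families despite their rise. TAGLN2, the widely expressed transgelin, fell to 424 ± 36.9 FPKM in H1975 OR, against 702 ± 23.5 FPKM in parental cells (adjusted p = 1.5e-06). TAGLN accounted for 1.45 ± 0.0559% of transgelin FPKM in H1975 OR and 0.147 ± 0.0392% in parental cells. ACTA2 accounted for 0.0630 ± 0.00789% of actin FPKM in H1975 OR and 0.0302 ± 0.00569% in parental cells. The bulk of actin was cytoplasmic: ACTB, beta-actin, averaged 2462 ± 209 FPKM in H1975 OR and 2781 ± 188 FPKM in parental cells, and did not pass (adjusted p = 0.0687). ACTG1, gamma-actin, was at 601, 668 and 598 FPKM in H1975 OR and 2172, 1982 and 1937 FPKM in parental cells (log2 fold change -1.70 ± 0.07, adjusted p = 5.4e-10). Gamma-actin thus fell to 20.2 ± 0.374% of actin FPKM, against 42.2 ± 0.977% in parental cells, and total actin was 3087 ± 249 FPKM in H1975 OR and 4813 ± 298 FPKM in parental cells. Coding sequences of the actin genes are nearly identical, so the split between them is uncertain.

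The summed calponin level was lower in H1975 OR, 133 ± 12.8 FPKM against 178 ± 11.5 FPKM in parental cells. CNN2 took 50.9%, 57.5% and 50.1% of calponin FPKM in H1975 OR and 58.3%, 61.8% and 57.8% in parental cells, and CNN3, the acidic calponin, averaged 61.3 ± 3.31 FPKM in H1975 OR and 72.5 ± 8.26 FPKM in parental cells (adjusted p = 0.0222), with overlapping groups. CNN1 reached 0.779 ± 0.164% of the family in H1975 OR. Pseudogene entries named after CNN2, 12 in all, summed to no more than 0.583 FPKM in any library. The shares of the 9 members with a family were tested by an exact permutation test over the 6 libraries, two-sided, which cannot go below p = 0.1. The exact permutation test gave p = 0.1 for 8 of them (adjusted p = 0.113) and p = 0.2 for TPM1.

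**Figure D4:**
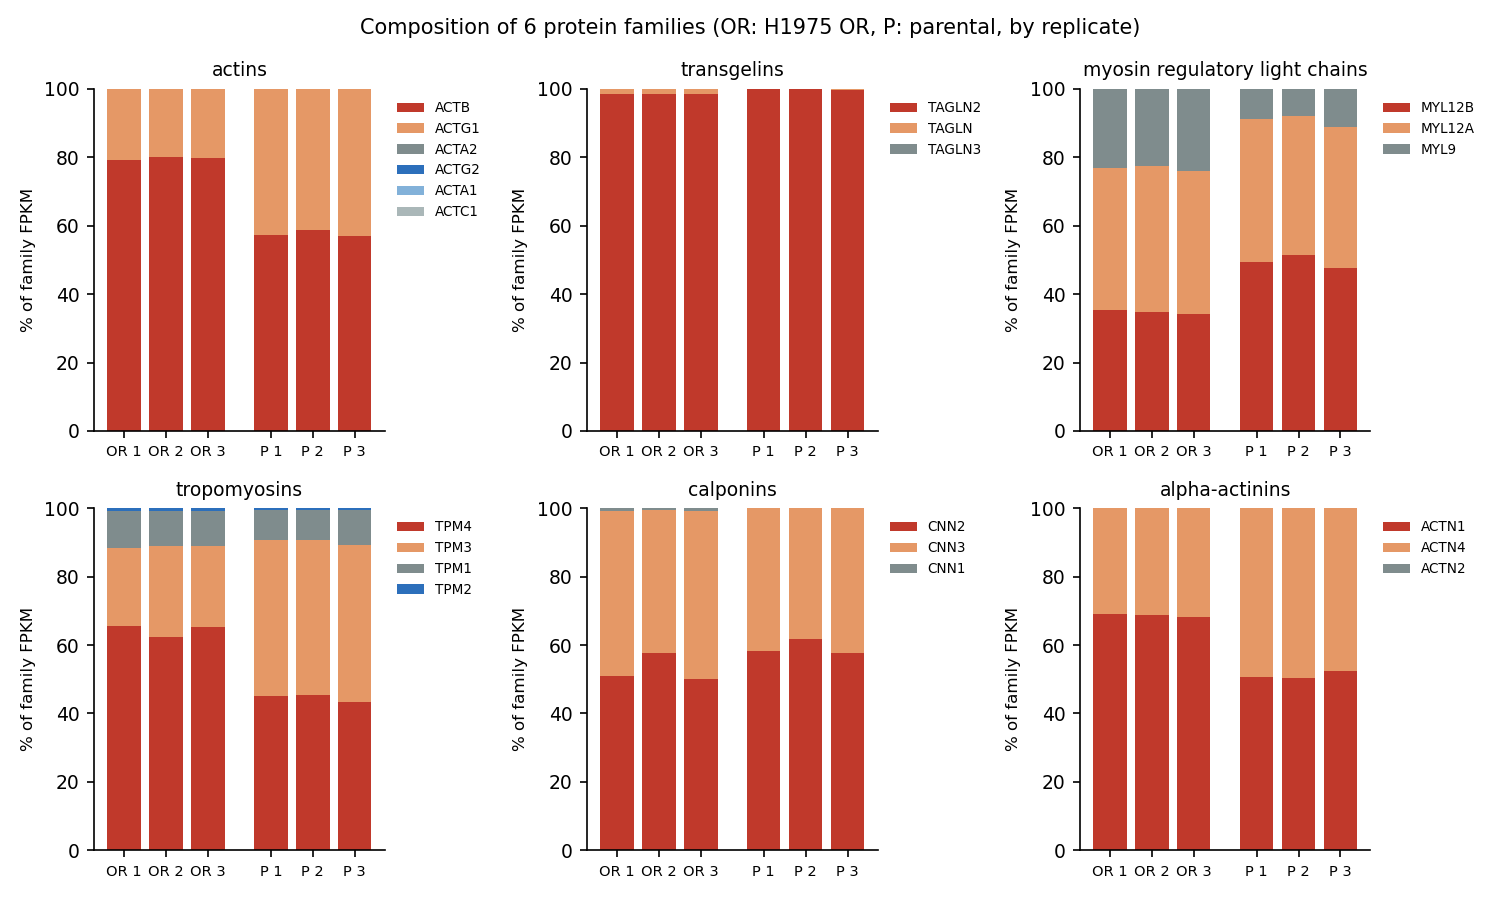
Share of each gene in the summed FPKM of its family, in percent, for H1975 OR replicates 1 to 3 (OR) and parental replicates 1 to 3 (P). TPM4, ACTN1 and MYL9 take larger shares in H1975 OR, and ACTB gains on ACTG1, while TAGLN and ACTA2 remain thin slices of families dominated by TAGLN2 and ACTB.

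The wider machinery around these genes was described by lists chosen from their known roles. Earlier results of these data were known at that choice, so the counts and medians of the lists are descriptions only. SRF itself was at 12.0, 13.3 and 12.7 FPKM in H1975 OR and at 9.49, 9.53 and 8.42 FPKM in parental cells (log2 fold change 0.43 ± 0.07, adjusted p = 8.6e-05). Its cofactor gene MKL1 averaged 11.1 ± 0.765 FPKM in H1975 OR and 8.32 ± 0.379 FPKM in parental cells (adjusted p = 0.000233). MKL2 went the other way, with 5.48 ± 0.521 FPKM in H1975 OR and 10.5 ± 0.906 FPKM in parental cells (adjusted p = 1.0e-06). Myocardin itself, MYOCD, the muscle cofactor, was near 0 in both lines, listed at 0 in every H1975 OR library and at no more than 0.002225 FPKM in parental cells. Of the ternary complex factors, which join SRF at immediate early genes, ELK1 rose (log2 fold change 0.50) and ELK3 fell (-0.34). Over this list of 7 genes 3 rose and 2 fell of 6 tested, with a median of 0.13, near the 39.9% higher and 38.1% lower of all tested genes.

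Of 21 other SRF-type cytoskeletal genes 18 were tested, and 11 rose, 6 fell and 1 did not pass, with a median of 0.43 against 0.01 over all tested genes, of which 39.9% rose and 38.1% fell. As the list was chosen with earlier results known, these values do not test for a difference from all genes. FILIP1L, named for its likeness to a filamin-binding protein, averaged 16.95 ± 1.27 FPKM in H1975 OR and 4.49 ± 0.551 FPKM in parental cells (adjusted p = 1.4e-09). FHL1, a LIM-domain protein of muscle, averaged 28.3 ± 1.70 FPKM in H1975 OR and 9.75 ± 0.821 FPKM in parental cells (adjusted p = 1.6e-09). Its relative FHL2, however, was lower: it was at 0.807, 0.685 and 0.708 FPKM in H1975 OR and at 38.8, 36.6 and 32.6 FPKM in parental cells. FHL2 was tested through parental cells alone, and no call is read from it. The focal adhesion gene ZYX, zyxin, fell to 54.4 ± 1.996 FPKM in H1975 OR, against 106 ± 4.98 FPKM in parental cells (adjusted p = 2.3e-08). The promoters of this list held a CArG box in 8 of 51 (15.7%), against 1.29% of all promoters. They were of 6 genes, FILIP1L, FHL1, SMTN and TGFB1I1, which were higher, and FHL2 and FLNA, which were lower. Windows of FHL2 overlap and share a box, so these promoters are not independent of each other either.

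Of 8 immediate early genes that SRF drives with the ternary complex factors 4 were tested, 0 rose and 2 fell in the limma fit, with a median of -0.28, beside 39.9% higher and 38.1% lower among all tested genes. The log2 fold changes of all 4 were below 0, so that 0 rose at an unadjusted p under 0.05 as well. EGR1 was at 1.43, 3.07 and 1.33 FPKM in H1975 OR and at 2.22, 2.16 and 2.67 FPKM in parental cells, with overlapping groups (adjusted p = 0.385). JUNB, an AP-1 subunit, fell to 74.7 ± 7.18 FPKM in H1975 OR, against 93.4 ± 5.45 FPKM in parental cells (adjusted p = 0.00237). The other fall was that of NR4A1, at means of 0.946 FPKM in H1975 OR and 3.18 FPKM in parental cells. NR4A1 was tested through parental cells alone, and no call is read from it. The untested genes averaged under 1 FPKM in each group, and no change is read from them. Means in H1975 OR and parental cells were 0.174 and 0.0290 FPKM for FOSB and 0.0125 and 0.0014 FPKM for EGR3. They were 0.0838 and 0.1575 FPKM for EGR2 and 0.806 and 0.759 FPKM for FOS, whose groups overlapped.

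The myosin motor that MYL9 serves changed in its heavy chains. MYH10, the heavy chain of non-muscle myosin IIB, was at 0.292, 0.266 and 0.303 FPKM in H1975 OR and at 17.4, 19.4 and 16.9 FPKM in parental cells (log2 fold change -3.88 ± 0.07). It was tested through parental cells alone, and no call is read from it. MYH9, the IIA chain, rose to 244 ± 4.21 FPKM in H1975 OR, against 186 ± 4.22 FPKM in parental cells (adjusted p = 5.1e-05). MYH14, the IIC chain, fell to 3.44 ± 0.236 FPKM, against 5.98 ± 0.0950 FPKM in parental cells. Over the 10 tested genes of the motor, its kinases and its phosphatase 1 rose, 5 fell and 4 did not pass (median -0.15), beside 39.9% higher and 38.1% lower among all tested genes. The kinase gene MYLK, which phosphorylates MYL9 and was named after its values were seen, averaged 13.8 ± 1.02 FPKM in H1975 OR and 21.5 ± 0.474 FPKM in parental cells (adjusted p = 2.5e-06).

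Of 11 genes whose products bind actin monomers or sever and cap filaments, 2 rose and 4 fell (median -0.06), the falls being near the background of 38.1% and the rises below that of 39.9%. PFN2, a profilin, fell to 15.9 ± 0.239 FPKM in H1975 OR, against 73.3 ± 2.89 FPKM in parental cells (adjusted p = 7.2e-12), and the severing factor DSTN fell to 116 ± 6.27 FPKM, against 219 ± 10.4 FPKM in parental cells (adjusted p = 6.1e-08). TMSB10, a thymosin that holds actin monomers, rose to 2370 ± 147 FPKM, against 1764 ± 243 FPKM in parental cells (adjusted p = 0.00145).

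**Figure D5:**
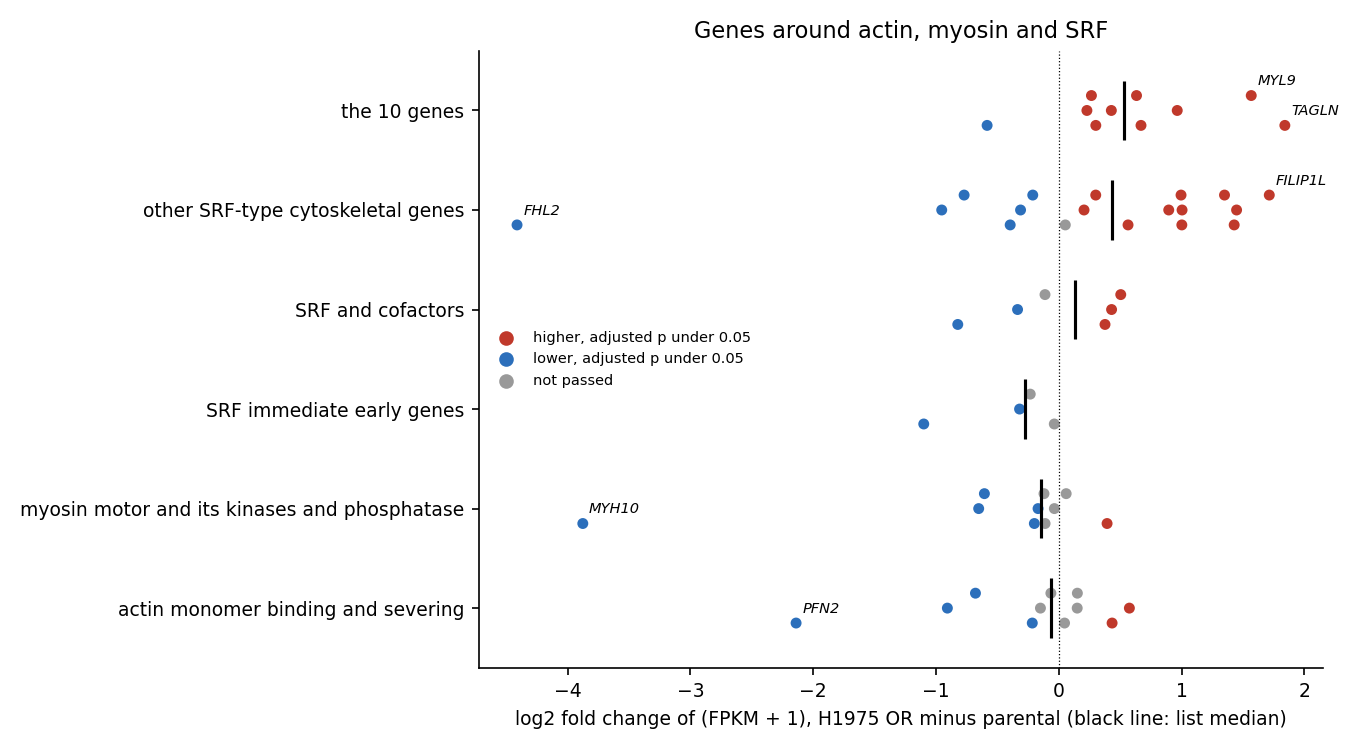
Log2 fold change of FPKM + 1 (H1975 OR minus parental) of the tested genes of each list; red and blue points passed an adjusted p of 0.05, grey ones did not, and the black line is the list median. The medians of the 10 genes (0.53) and of the other SRF-type cytoskeletal genes (0.43) lie right of 0, and those of the immediate early, myosin and actin monomer lists lie left of it.

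Markers of other cells that use the contractile genes were read in the same libraries. Of 8 smooth muscle markers 6 stayed under 1 FPKM in all libraries and KCNMB1 and CASQ2 were listed at 0 throughout, while MYH11, the defining heavy chain, averaged 0.231 FPKM in H1975 OR and 0.159 FPKM in parental cells. The summed level of this list was 29.97 to 32.3 FPKM in H1975 OR and 11.6 to 12.4 FPKM in parental cells, nearly all of it from SMTN, smoothelin, and DES, desmin, an intermediate filament of muscle. DES was at 5.67, 4.99 and 7.77 FPKM in H1975 OR and at 0.0235, 0.0151 and 0.0521 FPKM in parental cells. It was tested through H1975 OR alone, and no call is read from it. SMTN averaged 24.2 ± 2.50 FPKM in H1975 OR and 11.5 ± 0.425 FPKM in parental cells (adjusted p = 7.9e-08). Of 9 striated muscle markers 8 stayed under 1 FPKM, and the remaining one, TNNT1, fell to 117 ± 6.76 FPKM, against 207 ± 24.4 FPKM in parental cells.

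Fibroblast markers summed to 18.1 to 22.0 FPKM in H1975 OR and 2.44 to 2.97 FPKM in parental cells. Of the 9 markers 7 stayed under 1 FPKM in all libraries, and DCN was listed at 0 throughout. The sum came mostly from COL1A1, at means of 15.8 FPKM in H1975 OR and 2.45 FPKM in parental cells. PDGFRB, the other of the 2 tested, averaged 3.935 FPKM in H1975 OR and 0.0444 FPKM in parental cells. It was tested through H1975 OR alone, and no call is read from it. Pericyte markers summed to 45.8 to 53.9 FPKM in H1975 OR and 16.4 to 19.4 FPKM in parental cells, of which MCAM, a cell adhesion molecule, gave 43.8 ± 3.84 FPKM in H1975 OR and 8.69 ± 0.903 FPKM in parental cells. NOTCH3, also of that list, was at 0.371 ± 0.0927 FPKM in H1975 OR and at 6.47 ± 0.762 FPKM in parental cells. It was tested through parental cells alone, and no call is read from it. Endothelial markers summed to no more than 1.42 FPKM in any library. Leukocyte markers summed to 70.4 to 80.3 FPKM in H1975 OR and 24.1 to 27.6 FPKM in parental cells, from CD14 and CD68, while CD3E was listed at 0 and PTPRC, the pan-leukocyte gene, averaged 0.0154 FPKM in H1975 OR and 0.00247 FPKM in parental cells. The part of these markers in the levels of the 10 genes was not tested. Epithelial and lung markers summed to 915 to 992 FPKM in H1975 OR and 2979 to 3491 FPKM in parental cells. All 7 that were tested of 9 fell, against 38.1% of all tested genes. Of these, CDH1 and NKX2-1 were tested through parental cells alone, and no call is read from them. EPCAM, an epithelial adhesion molecule, averaged 1.02 ± 0.237 FPKM in H1975 OR and 211 ± 15.7 FPKM in parental cells (adjusted p = 4.1e-14). CDH1, E-cadherin, averaged 0.0248 ± 0.0135 FPKM in H1975 OR and 68.6 ± 3.72 FPKM in parental cells. The keratin KRT19 averaged 4.58 ± 0.741 FPKM in H1975 OR and 574 ± 71.8 FPKM in parental cells (adjusted p = 2.5e-11). NKX2-1, a lung lineage transcription factor, was listed at 0 in every H1975 OR library and at 27.9, 28.7 and 23.6 FPKM in parental cells. The smallest fall of the 7 was that of the keratin KRT8, which averaged 384 ± 19.5 FPKM in H1975 OR and 508 ± 34.0 FPKM in parental cells (adjusted p = 0.000232).

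Neighbouring genes gave a local background for each of the 10. The counts are to be read against the 39.9% higher and 38.1% lower of all tested genes. Within 1 Mb of TPM4, 19 of 23 tested genes rose and 2 fell, with a median log2 fold change of 0.75, beside 0.67 for TPM4 itself. Around CNN1, also on the short arm of chromosome 19, 45 of 56 rose (median 0.76), and around ACTN1 6 of 8 rose (median 0.40, beside 0.43 for ACTN1). TPM1 lay among genes of which 8 of 10 rose, with a median of 0.54, above its own 0.30. The changes of TAGLN and MYL9 exceeded those of their surroundings, whose medians were 0.39 and 0.22, and where 9 of 11 and 12 of 23 rose. ACTA2, TPM2 and CALD1 were higher in surroundings with medians of -0.37, -0.21 and -0.48, and CNN2 was lower where the median was 0.16. Around ACTA2, TPM2 and CALD1, 8 of 12, 13 of 25 and 11 of 14 fell, and around CNN2 26 of 54 rose. The part of these regional values in the changes of the 10 genes was not tested.

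Over the 6 libraries, the tested genes closest to TAGLN in level and change were PTPRM, GATA6 and FAM27B, by Euclidean distance of log2(FPKM + 1) (0.260, 0.281 and 0.290). GATA6, for example, was at 5.03, 6.12 and 5.73 FPKM in H1975 OR and at 0.917, 0.874 and 1.09 FPKM in parental cells. The closest to CNN2 were RAB5C, RUVBL1 and FAM129B (0.205, 0.242 and 0.281).

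Between 11410 and 11555 genes reached 1 FPKM in a library. Depth in reads is unknown, so that no counting interval can be given for the lowest values, those of CNN1 and ACTA2. The p-values rest on the spread between 3 libraries of the resistant line and 3 of the parental line and do not speak for other resistant lines.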

How the data were processed

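The authors' deposited values are FPKM in a series table with 1 column per library, and FPKM, TPM and mean coverage (a signal per base) per gene in 6 library files, per the file headers. Per the submitters' processing notes the build was GRCh37 and DESeq was used, with no version or role. The aligner, quantifier, annotation and strand setting are not named there. The series table and library files differed by more than 0.00001 FPKM for 1 to 4 genes per library. No counts were used.

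The test was limma 3.58.1 (R 4.3.3), fitted to log2(FPKM + 1) by group, moderated robustly along an intensity trend. It covered the 12107 genes whose mean reached 1 FPKM in a group, and two-sided p-values were adjusted over all of them by Benjamini-Hochberg. Counts of calls include genes that reached 1 FPKM in a single group, and the calls of such genes are not read as support. Fold changes are H1975 OR minus parental on this scale, which understates changes of low genes. Family shares are percentages of summed FPKM. The script was checked on simulated data in which far fewer genes were changed than passed here, so the check does not cover the share of calls seen here. Gene coordinates are GRCh37 from the deposited files, and promoters are RefSeq on GRCh38.p14.

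Members and lists were chosen with earlier results of these data known. Named genes were the 10, all paralogs, SRF, MKL1 and MKL2, and up to 2 genes per list and direction with the lowest adjusted p at 5 FPKM or more in the higher group, plus the 3 genes closest to TAGLN and to CNN2. Others named were chosen after their values were seen. ACTN3 and PECAM1 were not analysed here. One further list of genes is not reported here.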

Additional observations from a re-analysis of the deposited data

How the results depend on the processing

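The alternatives were another pseudocount, 2 other filters on low values, median-of-ratios rescaling, deposited TPM, plain moderation, FPKM from the library files (for family shares), a replicate block and leaving out each library. Under these, the 9448 calls among 12107 tested genes ranged from 8217 among 10829 to 11014 among 18038, since the filters changed how many genes were tested. The 10 genes kept their direction in every fit in which they were tested. Their single call lost was that of ACTA2 without parental replicate 2 (adjusted p = 0.0518, with a range of 0.00531 to 0.0518 over its alternatives). The median log2 fold change of the 10 genes, 0.53, moved to 0.43 when a mean of 1 FPKM was required in both groups and, in a comparison added after the data were seen, without CNN1, since both leave CNN1 out. The median ran from 0.44 to 0.55 over the fits that leave out a library. It was 0.44 without H1975 OR replicate 1, where CNN1 was not tested, and 0.47 without parental replicate 1. The log2 fold change of CNN1 was 3.09 with a pseudocount of 0.1, against 0.96 with 1. Whether equal replicate numbers mark paired libraries is not settled. The deviations of same-numbered libraries correlated at -0.14, 0.08 and 0.10. H1975 OR replicate 1 correlated best with parental replicate 2, while replicates 2 and 3 correlated best with the parental replicates of the same number. Deviations from a mean of 3 libraries depend on each other, so these correlations cannot decide it. With the replicate block 9422 genes passed, and the call of no gene of the 10 changed; CNN1, which is tested through its high group alone, is not counted as support. The median was 0.53. Without counts, depth limits what can be said of CNN1 and ACTA2.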
